A study of Tribolium castaneum with 8 samples.

Results

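The larva-to-pupa step of the red flour beetle Tribolium castaneum was described through every KEGG and Gene Ontology term that the deposited gene tables attach to enough genes. A gene was compared when it reached at least 1 RPKM (reads scaled to the length of the gene model and to the reads of the library) in the larval or the pupal library, and a term was kept when it held at least 10 such genes. This left 12280 of the 14422 genes listed in at least 1 of the study's 4 RNA libraries, and 523 terms: 136 from the KEGG column and 53, 120 and 214 from the Gene Ontology columns for cellular component, molecular function and biological process. Of the compared genes, 6775 sat in at least 1 kept term and 5505 in none, and 3335 carried no KEGG or Gene Ontology entry at all. The genes listed in either library but left out by the filter numbered 1299.

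All animals were of the laboratory strain GA-1, reared on whole wheat flour with yeast, and RNA came from whole bodies. Larvae were 20 days old, and pupae were 3 days old; the other RNA libraries were of 3-day embryos and 3-day adults. Each stage had 1 library, made from a number of animals that the sources do not state. No difference below therefore has a replicate check, and no p-value is given. The larval library held 3.58 M and the pupal library 3.67 M unique reads in genes, with medians of 81 and 86 reads per listed gene. The fold given for a named gene is the ratio of its RPKM values, followed by a 95% interval in parentheses that covers counting error only, since reads copied by PCR without molecular identifiers are not independent molecules. The library protocol mentions nothing that keeps the strand, so a gene and its antisense partner share their reads. In whole bodies, fewer cells of a type and less RNA per cell cannot be told apart.

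At metamorphosis a beetle larva stops feeding, and within the pupal case much of the larval gut, fat body and musculature is replaced, while wings, legs, compound eyes and the adult nervous system take shape. The steroid hormone ecdysone drives this through nuclear receptors and the transcription factors they switch on. KEGG Orthology numbers group genes by resemblance to proteins of known function, and Gene Ontology terms describe where a product acts, what it does and in which process. Both were assigned by sequence resemblance, so a term name may carry a function that its beetle members do not have.

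Across all compared genes the pupal library was at least 2-fold higher for 2792 genes, 22.7% of them, and at least 2-fold lower for 1748, 14.2%. These calls and all log2 ratios are taken on RPKM with 1 added, which understates differences of weakly expressed genes. A gene under 1 RPKM in the pupa was compared through the larval library and could not be called higher. Likewise, a gene under 1 RPKM in the larva could not be called lower. The median log2 ratio of all genes was 0.43 rather than 0, and 61.5% of the genes past 2-fold were higher. With the libraries rescaled by the median ratio of their counts, the median was 0.0021 and this share was 42.7%; with totals taken without the 20 genes richest in reads of either library, the median was 0.24 and the share 53.2%. The storage protein genes named hexamerin or arylphorin, 6 in all, held 11.8% of larval and 0.458% of pupal reads; their part in that median was not tested. Each term was therefore placed by its own median minus that of all genes, and called above or below when it lay at least 0.5 away.

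By that measure 28 terms stood above, 110 below and 385 between. The lower side reached further: KEGG terms ran from -5.50 to 2.28 relative to all genes, with 17 at least 2 below and 1 at least 2 above. In the terms at both ends most genes had passed the filter in 1 library only. In the highest, 8 of 10 genes were under 1 RPKM in the larva, and in the lowest most were in the pupa. Gene Ontology terms stayed closer, from -0.76 to 1.04 for components, -2.60 to 0.65 for functions and -2.95 to 0.82 for processes. KEGG supplied 59 of the terms below and 11 of those above, and the 3 Gene Ontology columns together 51 and 17. Terms share genes, so these counts are not independent of each other. The genes with no KEGG or Gene Ontology entry were at least 2-fold higher in 33.4% of cases and lower in 16.2%, against 17.9% and 15.3% for genes in a kept term.

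**Figure D1:**
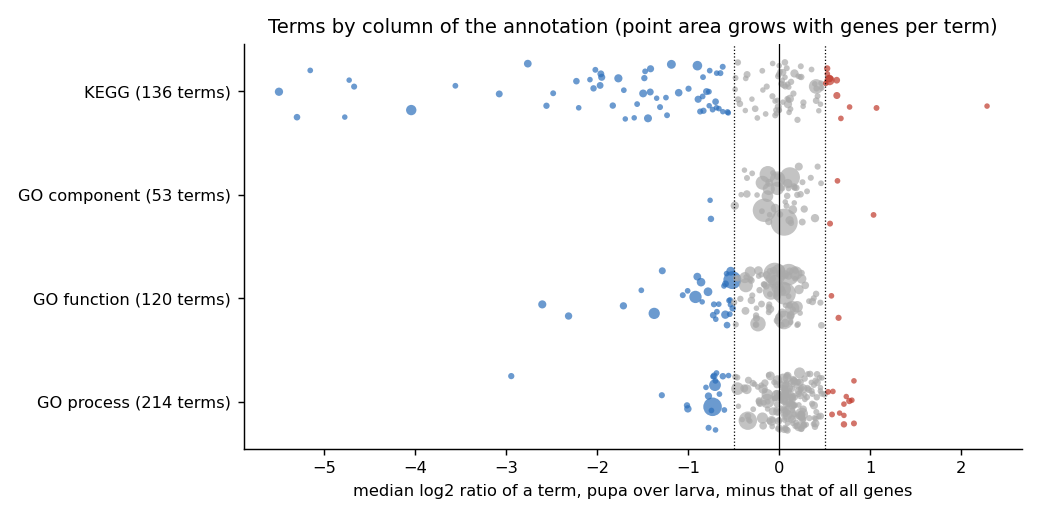
Median log2 ratio of each of the 523 terms, pupa over larva, minus the median of all genes, by column of the annotation. Each point is 1 term, blue at or below -0.5, red at or above 0.5 and grey between, with area growing with the number of genes; the KEGG terms reach -5.50, while no Gene Ontology component lies beyond -0.76 or 1.04.

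Digestive proteases made up the far end of the lower side. Chymotrypsin (K01310), a serine protease that cuts food protein in the gut, had 42 of 45 compared genes lower by 2-fold or more in the pupa and 2 higher, with a median log2 ratio of -5.07. Its genes took 0.513% (0.505 to 0.520) of larval reads and 0.0385% (0.0365 to 0.0405) of pupal reads, and 21 of them had no pupal read. Most of the 45 were under 1 RPKM in the pupa, with a median log2(RPKM + 1) of 0.41. These entered through the larval library and could not have been called higher. Chymotrypsin-like proteinase 5A (TC013709) stood at 1419.8 RPKM in the larval and 0.698 in the pupal library, where 2 reads remained of 3961, 2034-fold lower (563 to 16800.3). Serine protease P166 (TC015780) followed with 636 RPKM in the larval and 0.660 in the pupal library, 964-fold lower (267 to 7968). Serine protease P160 (TC015579) kept 1 pupal read against 529 RPKM in the larva. In the adult library they stood at 26.2 RPKM for TC013709 and 14.5 for TC015780, and the embryo library held at most 1.19 RPKM of either.

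The related term of chymotrypsin-like proteases (K09632) had 20 of 22 genes lower and 0 higher, and its reads went from 0.301% (0.296 to 0.307) to 0.00643% (0.00563 to 0.00730) of the library. It shared 16 genes with the chymotrypsin term, 72.7% of its own members. Proteinase 5B (TC014083, RefSeq symbol Ctlp-5b) stood at 709.6 RPKM in the larval and 0.701 in the pupal library. Proteinase 6C (TC015618) had 853 larval reads and no pupal read, at least 292-fold lower against a floor of 3 reads. Both entered through the larval library alone, and members of that kind could not have been called higher. The term of G protein subunit alpha-12 (K04346) came next, with 11 of 12 genes lower, but 7 of the 12 are named as serine proteases or trypsins and all 7 were lower. Its members included serine protease P37 (TC002766), at 116 RPKM in the larval and 0.328 in the pupal library. Beside it stood a GTP-binding protein alpha subunit (TC011824) with 122 larval reads and no pupal read. Both again entered through the larval library alone and could not have been called higher. Likewise the term tripartite motif-containing protein 2/3 (K11997) had 6 of 10 genes lower, 4 of them named as proteases.

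Most but not all serine proteases were lower. The 4 serine protease terms (chymotrypsin, chymotrypsin-like protease, transmembrane protease serine 9 and trypsin) together held 125 genes, of which 78 were lower and 21 higher. These were 62.4% and 16.8%, against 14.2% and 22.7% of all genes. Their median log2 ratio was -2.99, and their reads went from 1.01% to 0.426%. Within the trypsin term (K01312) 29 of 67 genes were lower and 17 higher. The share higher was 25.4%, near that of all genes. The trypsin median was -0.47, and the term's reads went from 0.460% to 0.340%. Among its 58 genes at 1 RPKM or more in the larva, 29 were lower and 10 higher. Serine protease P40 (TC002785) stood at 1147 RPKM in the larval and 1.40 in the pupal library, 822-fold lower (321 to 3017). Against it, the gene named stubble (TC030071-GA), whose Drosophila namesake is a membrane-anchored protease needed for the shaping of legs and wings, stood at 7.95 RPKM in the larval and 172 in the pupal library, 21.7-fold higher (17.1 to 27.9). Serine protease P87 (TC008659) was at 15.1 RPKM in the larval and 169 in the pupal library and P84 (TC008657) at 3.86 RPKM in the larval and 59.2 in the pupal library, 11.2-fold higher (9.55 to 13.3) and 15.3-fold higher (9.26 to 27.2). Stubble, P87 and P84 were also high in the embryo library, at 126, 139 and 23.2 RPKM, and low in the adult, at 2.30, 1.21 and 0.839 RPKM.

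The transmembrane protease serine 9 term (K09640), with 81 genes the second largest KEGG term, had members on both sides, 53 lower and 11 higher. A serine protease-like gene (TC000548) that carries this label and that of chymotrypsin was at 2.51 RPKM in the larval and 69.4 in the pupal library, 27.6-fold higher (13.8 to 64.8). Serine protease H51 (TC004622), 1 of the 2 chymotrypsin-term genes that were higher, stood at 10.5 RPKM in the larval and 101 in the pupal library and held 57.5% of that term's pupal reads. Without H51 the chymotrypsin term's pupal share was 0.0164%. Comparing the embryo with the adult library, which takes no value from either larva or pupa, 14 of the 21 protease genes higher in the pupa were at least 2-fold higher in the embryo and 4 in the adult. Of the 78 that were lower, 2 were at least 2-fold higher in the embryo and 53 in the adult.

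Other digestive enzymes lay on the same side. Alpha-amylase (K01176), which breaks starch, had 9 of 10 genes lower and none at least 2-fold higher, and its reads went from 0.170% (0.166 to 0.174) to 0.00101% (0.000709 to 0.00139). Most of the 10 were likewise under 1 RPKM in the pupa, with a median log2(RPKM + 1) of 0.24, and could not have been called higher. TC000937 stood at 678 RPKM in the larval and 0.739 in the pupal library, with 3572 and 4 reads, and TC000938 and TC000939 kept 1 pupal read each against 232 and 147 RPKM in the larva. The exception, TC000941, was low in both, at 2.39 RPKM in the larval and 2.33 in the pupal library. Cathepsin B (K01363) had 10 of 11 genes lower and cathepsin L (K01365) 9 of 13, with none of either at least 2-fold higher. Any of these genes under 1 RPKM in the pupa could not have been called higher. Cathepsins, which are cysteine proteases, also serve lysosomes. In aminopeptidase N (K11140), an enzyme that trims peptides from their end, 5 of 10 genes were lower and 2 higher. TC001262, the leading larval gene, went from 1674 reads to 0, at least 573-fold lower, while TC004557 stood at 110.2 RPKM in the larval and 288 in the pupal library, 2.61-fold higher (2.44 to 2.81), and alone held 66.6% of the term's pupal reads.

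Glycosidases and lipases followed. Of the genes labelled as hydrolases of glycosyl bonds, 19 of 32 were lower and 2 higher. A beta-glucosidase (TC010052) stood at 505 RPKM in the larval and 0.361 in the pupal library, from 2728 and 2 reads, and a gene labelled alpha-glucosidase (TC008358) had 1190 larval reads and no pupal read, at least 407-fold lower. Lysosomal acid lipase (K01052) had 11 of 16 genes lower and 1 higher. Within it TC007182 and TC007185, both labelled triacylglycerol lipase, had 1283 and 331 larval reads and none in the pupa, whereas TC007981 was within 2-fold, at 103 and 78.6 RPKM, and supplied 58.0% of the pupal reads. The 6 esterase and lipase terms, among them the one labelled juvenile-hormone esterase (K01063; 17 of 25 lower), held 71 genes together, 40 lower and 8 higher. TC015230, an alpha-esterase E3, was higher at 4.34 against 0.343 RPKM, on 26 and 2 reads, and stood at 58.0 RPKM in the adult.

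Beside these terms, the genes with midgut names (trypsin, cathepsin or amylase in the deposited name, 40 listed and 37 compared) were lower in 25 cases and higher in 3. They took 1.10% of larval and 0.279% of pupal reads, and 10 had no pupal read. This list overlaps the terms it stands beside, and its part in them was not tested. Only reads that fit a single place were counted, so near-identical copies within these families are undercounted and single members are uncertain.

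**Figure D2:**
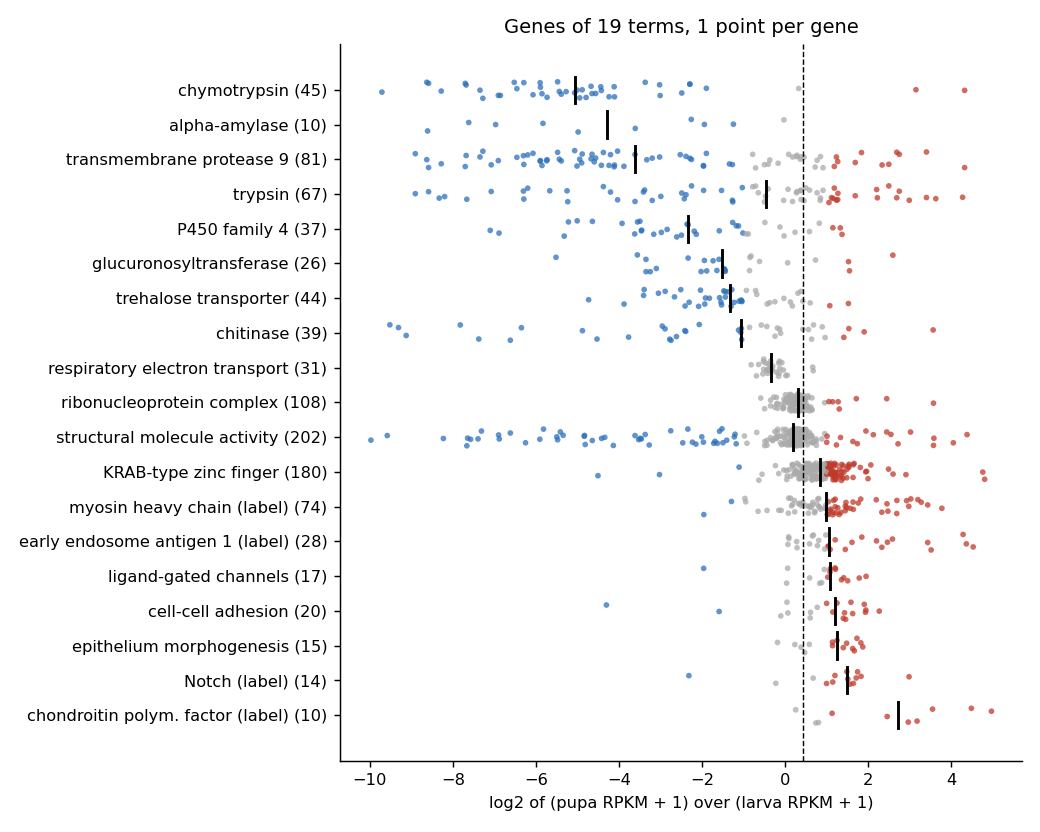
Log2 ratio of (RPKM + 1), pupa over larva, of every compared gene in 19 terms, with the number of genes in parentheses. Blue points are at least 2-fold lower and red points at least 2-fold higher in the pupa, black bars are term medians and the dashed line is the median of all genes (0.43); the chymotrypsin genes centre on -5.07, trypsin genes spread over both sides, and the ribonucleoprotein genes stay close to the line.

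Most genes of the enzymes that modify foreign and hormonal compounds were lower. Cytochrome P450s insert oxygen into such compounds; in family 4 (K15001) 26 of 37 genes were lower and 3 higher, in family 9 (K15003) 15 of 22 and 2, and in family 6 (K15002) 21 of 41 and 4. Cyp9f2 (TC006445) stood at 2106 RPKM in the larval and 3.6 in the pupal library, 585-fold lower (378 to 958), and at 1306 RPKM in the adult. It alone held 79.1% of the family 9 reads in the larva, and without it that family's share went from 0.0841% to 0.0435% instead of from 0.403% to 0.0440%. In family 4, CYP4Q7 (TC012502) was at 629 RPKM in the larval and 3.59 in the pupal library and Cyp4q2 (TC012500) at 330.3 RPKM in the larval and 1.8 in the pupal library. Cyp4g14 (TC008058), of the group known in insects for making cuticular hydrocarbons, was the most abundant family 4 gene in both libraries and differed less, at 1088 RPKM in the larval and 482 in the pupal library, 2.26-fold lower (2.17 to 2.36).

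A few P450 genes went the other way. The family 9 neighbours in number TC006763 and TC006764 stood at 8.79 RPKM in the larval and 75.9 in the pupal library and at 19.4 RPKM in the larval and 184 in the pupal library, 8.64-fold higher (5.60 to 13.9) and 9.51-fold higher (7.34 to 12.5). Among iron-binding proteins, of which 48 of 99 were lower and 12 higher, CYP307A1 (TC004159) was at 2.78 RPKM in the larval and 21.2 in the pupal library, 7.61-fold higher (4.51 to 13.7); its Drosophila counterpart, spook, acts in ecdysone synthesis. Catalase (TC011385), which breaks down hydrogen peroxide, was at 19.3 RPKM in the larval and 155 in the pupal library, and a gene labelled thyroid peroxidase (TC000175) at 3.46 RPKM in the larval and 99.4 in the pupal library, 28.7-fold higher (19.3 to 44.7). The ferritin heavy chain (TC000476), the iron store, was at 1391 and 944 RPKM, a difference under 2-fold.

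Among the conjugating enzymes that finish detoxification, the families differed in their counts. Of the glucuronosyltransferases (K00699), 17 of 26 were lower and 3 higher. TC007056 stood at 76.7 RPKM in the larval and 0.698 in the pupal library, 109.9-fold lower (42.6 to 405), whereas TC008804 had no larval read and 36 pupal reads, at least 11.7-fold higher. Glutathione S-transferases (K00799) had 12 of 35 genes lower and 4 higher, counts that median-ratio rescaling moved to 19 and 2, with shares of reads of 0.209% and 0.178%. TC009128 was at 13.4 RPKM in the larval and 51.1 in the pupal library, 3.80-fold higher (2.81 to 5.23), and TC013948, with 40 larval reads and none in the pupa, was at least 13.7-fold lower.

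Membrane carriers of sugars and small solutes formed the next group. The term facilitated trehalose transporter (K14258), named for the carrier of the insect blood sugar, had 29 of 44 genes lower and 2 higher. TC009681 stood at 35.8 RPKM in the larval and 0.388 in the pupal library, 92.4-fold lower (25.2 to 769), and TC012230 had 67 larval reads and none in the pupa. The most abundant gene, TC003228, was alike in both, at 70.0 and 76.7 RPKM, and TC013484 was higher, at 4.39 RPKM in the larval and 14.5 in the pupal library. Over the 7 KEGG terms of the major facilitator superfamily, the group of carriers to which these belong, 57 of 119 genes were lower and 16 higher. The SV2-like gene TC000303 was at 69.6 RPKM in the larval and 1.24 in the pupal library, 56.2-fold lower (27.0 to 141). Channel and carrier genes outside these terms lay at the low end of the general term transport: TC013040, labelled as a sodium-coupled carrier, was at 175 RPKM in the larval and 1.17 in the pupal library, and TC006575, labelled amiloride-sensitive sodium channel, kept 1 pupal read against 78.1 RPKM. That term as a whole held 46 higher and 75 lower genes among 294, and 25 and 92 after median-ratio rescaling. Its share of reads was 1.61% in both libraries, and 1.41% and 1.27% in larva and pupa without TC004873, its gene with most reads.

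The chitin terms held genes with gut names and genes with cuticle names, which were not counted apart. Chitin stiffens the cuticle and lines the midgut as the peritrophic matrix, and chitinases digest it at each moult. Of the genes of the chitinase term (K01183), 22 of 39 were lower and 4 higher, and their reads went from 1.11% to 0.691%. The calls were 56.4% and 10.3%, against 14.2% and 22.7% of all genes. Chitinase 8 (TC009624) stood at 863 RPKM in the larval and 0.548 in the pupal library, on 4601 and 3 reads. Peritrophic matrix protein 2-B (TC003275) stood at 1864 RPKM in the larval and 1.55 in the pupal library, also on 3 pupal reads, and TC009627, labelled chitinase, had 2447 larval reads and none in the pupa, at least 838-fold lower. The genes that were higher included a cuticular protein analogous to peritrophins, Cpap3-a2 (TC011141), at 15.3 RPKM in the larval and 193 in the pupal library, 12.6-fold higher (9.06 to 17.9). Chitin deacetylase 4 (TC007635), which alters chitin in the cuticle, was at 37.2 RPKM in the larval and 109.8 in the pupal library, and TC001770, a gene without a name, at 347 RPKM in the larval and 929 in the pupal library. TC001770 was as high in the embryo, at 1125 RPKM, and low in the adult, at 5.26 RPKM.

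The label valyl-tRNA synthetase (K01873) is attached in part to the same kind of gene: 11 of its 19 members are named as peritrophic or chitin proteins. Of these, 7 were lower and 2 higher, and of the 8 others 4 were lower and 0 higher. In all, 11 of the 19 were lower. Peritrophic matrix protein 2-A (TC003274) had 604 larval reads and none in the pupa, at least 207-fold lower. The lowest Gene Ontology process is left unnamed in the tables and had 12 of 18 genes lower and 1 higher.

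The general function structural molecule activity lay near all genes, at -0.23 relative to their median, yet joined genes of contrasting behaviour. Its 202 genes include 47 named as cuticle proteins, of which 35 were lower and 6 higher with a median log2 ratio of -2.46, and 93 named as ribosomal proteins, of which 0 were lower and 3 higher with a median of 0.30. This split was made after the members' values were seen. The pupal cuticle protein 78E (TC013136), named after a Drosophila protein, stood at 3877 RPKM in the larval and 2.86 in the pupal library, 1356-fold lower (529 to 4979.9), and another gene named pupal cuticle protein (TC014500) at 1452 RPKM in the larval and 0.899 in the pupal library on a single pupal read. A larval cuticle protein (TC014498) was at 556 RPKM in the larva with 1 pupal read. In the other direction an adult cuticle protein (TC015901) was at 10.5 RPKM in the larval and 137 in the pupal library, 13.0-fold higher (7.72 to 23.7), and acp-22 (TC003507) had no larval read, at least 12-fold higher. Both genes named pupal cuticle protein here were thus at their larger value in the larval library, and the genes named adult cuticle protein and acp-22 at theirs in the pupal.

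Genes named as carriers of small hydrophobic molecules sat under labels that name other proteins, and many of them were lower. The term Ras GTPase-activating protein 1 (K04352) had 9 of 13 genes lower and none at least 2-fold higher, and 12 of the 13 are named chemosensory proteins. Csp20 (TC015902) stood at 4029.9 RPKM in the larval and 53.0 in the pupal library, 76.0-fold lower (60.4 to 97.2), Csp10 (TC008682) at 3273 RPKM in the larval and 373 in the pupal library and Csp18 (TC008674) at 436 RPKM in the larval and 2.90 in the pupal library. Csp6 (TC014533) was above its larval level at 264 against 181 RPKM, short of 2-fold. The term of a leucine-rich repeat receptor, LGR6 (K08399), had 11 odorant-binding proteins among its 20 genes. Of these 11, 7 were lower and 2 higher, against 5 lower and 2 higher among the 9 not so named. C13 (TC030448) went from 990.1 to 2.05 RPKM and C02 (TC010067) from 299 to 1996, 6.68-fold higher (6.03 to 7.40), while C01 (TC010066), with 42.4% of the larval and 54.6% of the pupal reads of the term, was alike in both. The term labelled Ran (K07936) had 9 of 14 genes lower, among them the take-out-like carrier JHBP-1 (TC015843) at 222 RPKM in the larval and 2.60 in the pupal library, and 2 higher, with TC001182, named soldier-specific protein-1, at 5.82 RPKM in the larval and 77.9 in the pupal library. JHBP-1 was the only 1 of the 14 named as take-out, JHBP or hormone-binding.

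In the terms metabolic process, transaminase activity and fatty acid metabolism more genes were lower than higher. Of the genes of metabolic process, the largest process term, 102 of 299 were lower and 44 higher. These were 34.1% and 14.7%, against 14.2% and 22.7% of all genes. After median-ratio rescaling 43.6% were lower and 10.1% higher, against 18.3% and 13.6% of all genes. Transaminases, which move amino groups between amino acids and keto acids, had 6 of 12 genes lower and none at least 2-fold higher. Their gene TC011390, labelled alanine-glyoxylate aminotransferase, was at 371 RPKM in the larval and 89.2 in the pupal library, 4.16-fold lower (3.75 to 4.61). In fatty acid metabolism 7 of 19 genes were lower and none higher. The delta-9 desaturases, which place the first double bond in fatty acids, led it: desaturase A (TC011471) was at 161 RPKM in the larval and 1.54 in the pupal library and desaturase B (TC016415) at 123 RPKM in the larval and 14.2 in the pupal library, 105-fold lower (47.9 to 287) and 8.68-fold lower (6.56 to 11.7). An elongase (TC011938) was 6.96-fold lower (5.78 to 8.43).

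Glucose breakdown had a low median, -0.72 relative to all genes, with 7 genes higher and 3 lower among 25; after median-ratio rescaling these were 6 and 9. Of the 25, 5 were under 1 RPKM in the larva, entered through the pupal library and could not have been called lower. Among the 20 others, 2 were higher and 3 lower. The abundant glyceraldehyde 3-phosphate dehydrogenase (TC006170) was at 681 and 459 RPKM and an aldolase (TC014998) at 616 and 348, both under 2-fold, and hexokinase (TC000318), which starts the pathway, at 24.1 RPKM in the larval and 4.41 in the pupal library, 5.46-fold lower (3.44 to 9.05). Genes labelled for later steps of the pathway included some that were higher: one labelled enolase (TC011729) stood at 0.429 RPKM in the larval and 13.0 in the pupal library, on 2 larval reads, and a phosphoglycerate mutase (TC001380) at 6.16 RPKM in the larval and 14.5 in the pupal library. In the adult library these were at 203 and 159 RPKM.

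Mitochondrial and proteasome terms lay below by a small and narrow shift. The respiratory electron transport chain had a median log2 ratio of -0.35, -0.78 relative to all genes, yet none of its 31 genes was 2-fold lower or higher, and all lay between -0.82 and 0.68. A subunit of complex III (TC007766) stood at 476 RPKM in the larval and 295 in the pupal library. After median-ratio rescaling 3 of the 31 were 2-fold lower. Of the 110 terms below, 9 had no gene 2-fold lower, this one among them. The proteasome regulatory particle, the cap that unfolds proteins for breakdown, had 9 of 10 genes between, with a median of -0.33, and 1 higher; rescaling placed 3 of the 10 past 2-fold lower. The gene that was higher, TC012621, labelled as a regulatory subunit, was at 156 RPKM in the larval and 633 in the pupal library, 4.06-fold higher (3.80 to 4.35), and held 46.8% of the term's pupal reads. With it the term's share of reads went from 0.213% to 0.256%, and without it from 0.184% to 0.136%, so the direction of the share rests on this 1 gene.

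The machinery of gene expression was nearly level. Of 108 genes of ribonucleoprotein complexes, 0 were lower and 7 higher, and their quartiles were 0.14 and 0.42. Ribosomal protein L6 (TC030666) stood at 1879.8 RPKM in the larval and 2140.2 in the pupal library. Of the 65 translation genes, 0 were lower and 5 higher, and after median-ratio rescaling 0 were past 2-fold either way. Argonaute 1 (TC005857), which acts with microRNAs, was among the 5, at 125 RPKM in the larval and 278 in the pupal library, and an abundant elongation factor 1-alpha gene (TC001880) was at 2446 and 3011 RPKM. The spliceosomal complex had 4 of 63 genes higher and 1 lower.

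Transcription factors lay near all genes, with a median 0.18 above theirs. Of the genes with nucleic acid binding transcription factor activity, 40 of 151 were higher, 26.5% against 22.7% of all genes, and 7 lower, and their reads went from 0.532% to 0.919%. After median-ratio rescaling 22 were higher, 14.7% against 13.6% of all genes, and 12 lower. The nuclear receptor E78 (TC003935), an early ecdysone-response gene in Drosophila, stood at 4.04 RPKM in the larval and 133 in the pupal library, 33.0-fold higher (20.1 to 58.1). Hormone receptor in 46 (TC008909), the HR3 group that relays the ecdysone pulse, was at 40.6 RPKM in the larval and 323 in the pupal library, 7.95-fold higher (6.93 to 9.15). The Pax2-type factor shaven (TC003570) was at 3.74 RPKM in the larval and 23.4 in the pupal library. Lower were ventral nervous system defective (TC007014), at 17.8 RPKM in the larval and 1.70 in the pupal library, and a model named ultraspiracle (TC014027-GA), the partner of the ecdysone receptor, at 10.8 RPKM in the larval and 2.34 in the pupal library.

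The largest KEGG term, KRAB domain-containing zinc finger protein (K09228), holds DNA-binding proteins with arrays of zinc fingers; the KRAB domain itself is a vertebrate feature, so the label describes the fingers only. Of 180 genes, 65 were higher, 36.1% against 22.7% of all genes, and 3 lower. The median was 0.41 above that of all genes, short of the bound of 0.5. Median-ratio rescaling left 21 higher and 5 lower. The share higher was then 11.6%, against 13.6% of all genes. Blimp-1 (TC014741), an ecdysone-induced repressor in Drosophila, stood at 3.09 RPKM in the larval and 114 in the pupal library, 36.8-fold higher (25.7 to 54.3), and TC015529, without a name, at 1.29 RPKM in the larval and 61.2 in the pupal library, 47.4-fold higher (22.8 to 119). The gene vielfaltig (TC014798), known in Drosophila as the early embryonic activator Zelda, was at 34.7 RPKM in the larval and 0.573 in the pupal library, on 5 pupal reads. Of the 65 zinc finger genes higher in the pupa, 37 were also at least 2-fold higher in the embryo than in the adult library. For 1 the reverse held. Among all genes higher in the pupa, 38.2% were higher in the embryo and 27.8% in the adult. The term broad (K02174), named for the factor that sets the pupal programme in insects, had 3 genes higher and 3 lower among 18.

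The 17 of 387 Gene Ontology terms above included some of tissue shaping, cell contact and nerve cells. Other terms with such names lay between, such as synapse, neuron projection, synaptic transmission, nervous system development and brain development. Morphogenesis of an epithelium had 10 of 15 genes higher and none lower, asymmetric protein localization 7 of 11 and none, and cell-cell junction assembly 11 of 20 and 1. A pair of genes labelled discs large, TC000854 and TC000855, carried the first and the second of these terms, and TC000855 also the third; discs large is a scaffold of the septate junction that seals epithelia. TC000854 stood at 12.5 RPKM in the larval and 43.9 in the pupal library and TC000855 at 62.9 RPKM in the larval and 178 in the pupal library, 3.51-fold higher (2.59 to 4.82) and 2.83-fold higher (2.50 to 3.20). Lachesin (TC015310), a junction protein that shapes tracheal tubes in Drosophila, was at 94.7 RPKM in the larval and 252 in the pupal library, Rab23 (TC010038), which orients wing hairs there, at 67.6 RPKM in the larval and 242 in the pupal library, and TC012086, labelled as a partitioning defective protein, at 14.7 RPKM in the larval and 38.2 in the pupal library. Morphogenesis of an epithelium and asymmetric localization shared 8 genes, 53.3% of the first and 72.7% of the second. After median-ratio rescaling 6 of 16 genes of the first, 4 of 12 of the second and 8 of 21 of junction assembly were higher. Of all genes 13.6% were then higher. Rescaling placed 2 genes of junction assembly lower and none of the others. Among genes at 1 RPKM or more in the larva, the higher genes were 7 of 12, 5 of 9 and 8 of 17 without rescaling.

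Cell-cell adhesion had 12 of 20 genes higher and 2 lower. Among its 17 genes at 1 RPKM or more in the larva, 9 were higher and 2 lower. Starry night (TC012521), the planar polarity cadherin also called flamingo, stood at 14.1 RPKM in the larval and 56.9 in the pupal library, 4.03-fold higher (3.65 to 4.45). The guidance ligand slit (TC000214) was at 16.7 RPKM in the larval and 67.3 in the pupal library and a nephrin-like adhesion protein (TC002914) at 20.9 RPKM in the larval and 105 in the pupal library, 4.03-fold higher (3.50 to 4.64) and 5.01-fold higher (4.27 to 5.89). The cadherin 23 term (K06813) held opposite extremes: a cadherin-like gene (TC011155) was at 1.72 RPKM in the larval and 48.1 in the pupal library, 28-fold higher (19.9 to 40.6), and an E-cadherin-like gene (TC000222) at 136 RPKM in the larval and 0.614 in the pupal library, 221-fold lower (123 to 443). Cell cortex part, the component furthest above, had 9 of 13 genes higher and 1 lower. TC000163, without a name, stood at 25.6 RPKM in the larval and 1476 in the pupal library, 57.6-fold higher (49.9 to 66.7), and held 57.7% of the term's pupal reads. The term's lower gene, TC013742, labelled myosin VII, was at 27.7 RPKM in the larval and 0.257 in the pupal library, while another myosin VIIa (TC013346) was at 18.7 RPKM in the larval and 54.3 in the pupal library, 2.90-fold higher (2.60 to 3.24).

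The KEGG term Notch (K02599) stood 1.07 above all genes, with 11 of 14 genes higher and 1 lower, and its reads went from 0.199% (0.194 to 0.203) to 0.524% (0.516 to 0.531). Notch is a receptor with many EGF repeats that sorts neighbouring cells into different fates; none of the 14 genes is named Notch in the protein descriptions, and 11 have no informative name. TC009861 stood at 21.1 RPKM in the larval and 174 in the pupal library, 8.26-fold higher (7.28 to 9.39), TC004393 at 57.6 RPKM in the larval and 129 in the pupal library, and TC000871, which also carries tracheal development, at 25.3 RPKM in the larval and 74.1 in the pupal library. The exception, TC000964, was at 59.9 RPKM in the larval and 11.2 in the pupal library, 5.33-fold lower (3.82 to 7.61). Signal transducer activity had 22 of 66 genes higher and 7 lower; a laminin alpha chain (TC014773), of the basement membrane, was at 11.8 RPKM in the larval and 62.3 in the pupal library, and torso (TC009906), in Drosophila the receptor of prothoracicotropic hormone, at 11.9 RPKM in the larval and 1.06 in the pupal library, 11.2-fold lower (6.04 to 23.0).

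Some nerve terms stood above, at low levels. Excitatory ligand-gated ion channels, the receptors of fast transmission at synapses, had 10 of 17 compared genes higher and 1 lower, with medians of 21.7, 1.87, 5.13 and 4.53 RPKM in embryo, larva, pupa and adult. Of the 23 genes with the term, 6 stayed under 1 RPKM in both libraries. Nicotinic receptor subunit alpha 3 (TC004383) stood at 2.87 RPKM in the larval and 14.0 in the pupal library, 4.87-fold higher (2.87 to 8.75), and alpha 2 (TC012852) at 11.2 and 11.7 RPKM, a difference within counting error. The lower gene was Ir76b (TC007128), a co-receptor of chemosensory neurons, at 6.69 RPKM in the larval and 0.978 in the pupal library. In synapse assembly 6 of 11 genes were higher and none lower, with complexin (TC010644), a clamp on vesicle fusion, at 20.1 RPKM in the larval and 53.6 in the pupal library. In axon choice point recognition 6 of 10 were higher and none lower, led by the guidance receptor semaphorin-1a (TC014179), at 37.5 RPKM in the larval and 168 in the pupal library, 4.47-fold higher (3.93 to 5.09). After median-ratio rescaling 5 of 16 channel genes, 4 of 12 of synapse assembly and 3 of 10 of axon choice point recognition were higher. The lower genes were then 1, 1 and 0, and 13.6% of all genes were higher. Among genes at 1 RPKM or more in the larva, the higher genes were 7 of 13, 4 of 9 and 5 of 9 without rescaling. Genes with nerve names (synaptotagmin, syntaxin or acetylcholine receptor, 22 compared) were higher in 9 cases and lower in 0; their part in these terms was not tested.

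Other developmental and defence terms were similar in size. Open tracheal system development had 6 of 13 genes higher and none lower, with Blimp-1 again its highest. Photoreceptor fate commitment in the compound eye had 6 of 11 higher and none lower, with TC006432, labelled as a mediator subunit, at 2.95 RPKM in the larval and 11.5 in the pupal library. Defense response had 5 of 14 higher and 1 lower; toll-6 (TC004895) was at 12.4 RPKM in the larval and 91.4 in the pupal library and a toll-7-like gene (TC004474) at 19.8 RPKM in the larval and 73.0 in the pupal library, both of the Toll receptor family. Autophagic cell death had 3 genes higher and 4 lower among 23. Median-ratio rescaling left 3 tracheal genes higher and 1 lower, 3 photoreceptor genes higher, and 1 autophagic gene higher and 6 lower.

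**Figure D3:**
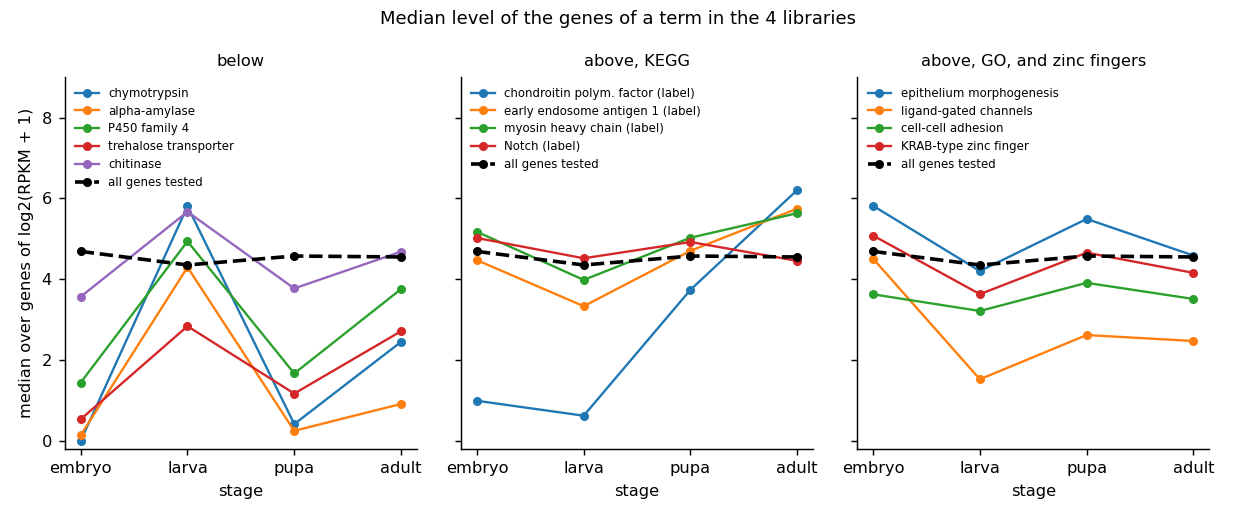
Median over a term's compared genes of log2(RPKM + 1) in the embryo, larval, pupal and adult libraries, for 5 terms below (left), 4 KEGG terms above (middle), and 3 Gene Ontology terms above with the zinc finger term (right); the dashed line is all compared genes. The terms on the left have their highest value in the larva, the early endosome antigen 1 and chondroitin polymerizing factor labels are higher in the pupa than the larva and highest in the adult, and the terms on the right have their lowest value in the larva.

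A separate set of KEGG terms stood above through genes that were higher still in the adult. The term furthest above all genes, 2.28, bears the label chondroitin polymerizing factor (K00747), with 7 of 10 genes higher and none lower. TC014433 stood at 0.361 RPKM in the larval and 41.7 in the pupal library, on 2 and 237 reads, and at 497 RPKM in the adult. TC015814, named as a putative allergen, was at 0.882 RPKM in the larval and 41.2 in the pupal library and at 455 in the adult, and TC008363 at 0.533, 17.0 and 188 RPKM in larva, pupa and adult. Only TC014902 carried many larval reads, 90.3% of the term's, and it was alike at 20.0 and 24.1 RPKM. Of the 10 genes, 8 were under 1 RPKM in the larva: they entered the comparison through the pupal library and could not have been called lower. The count and the median of 2.28 therefore say nothing of direction. The 2 others were neither higher nor lower by 2-fold.

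Terms named for long coiled-coil proteins made up most of the rest: myosin heavy chain (K10352), early endosome antigen 1 (K12478), centromeric protein E (K11498), CAP-Gly linker protein 1 (K10421) and the hyaluronan-mediated motility receptor (K06267). Coiled coils resemble each other in sequence, and 52 of the 74 genes labelled myosin heavy chain have no informative name. That term had 36 genes higher and 2 lower, while rescaling by the median ratio left 22 and 5, and early endosome antigen 1 16 of 28 higher and 0 lower. TC008268 stood at 2.75 RPKM in the larval and 85.7 in the pupal library, 31.2-fold higher (21.0 to 48.4), and at 1159 RPKM in the adult. TC010548, with 1 larval read, was at 23.0 and 343 RPKM in pupa and adult, and TC003701, named coiled-coil domain containing 96, had no larval read, at least 45.8-fold higher, and stood at 186 RPKM in the adult. TC014768 was at 0.710, 22.4 and 283 RPKM in larva, pupa and adult.

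Some of these genes also entered through the pupal library alone. Among genes at 1 RPKM or more in the larva, 21 of 58 in the myosin term were higher and 2 lower. In early endosome antigen 1, 9 of 20 were higher and 0 lower, and in centromeric protein E 5 of 16 and 1. In CAP-Gly linker protein 1 these were 11 of 28 and 2, and in the hyaluronan-mediated motility receptor 2 of 8 and 0. Not all members followed the pattern of a still higher adult level. The 2 most abundant genes of the myosin term, TC005924 and TC002444, were at 475 and 627, and at 689 and 439 RPKM, neither 2-fold apart. Stathmin (TC013090), a regulator of microtubules, was at 292 RPKM in the larval and 974 in the pupal library, 3.34-fold higher (3.12 to 3.57), and at 443 RPKM in the embryo and 166 in the adult, the lowest of the 4. The titin term (K12567) had 4 of 12 genes higher and none lower; TC006316 was at 0.371 RPKM in the larval and 13.4 in the pupal library, and tenebrin (TC012717) at 101 RPKM in the larval and 228 in the pupal library. Genes with muscle names (9 compared) were higher in 1 case and lower in 2.

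Axonemal dynein heavy chain (K10408), the motor of the beating sperm tail and cilium, had 9 of its 11 compared genes under 1 RPKM in the larva. These entered through the pupal library and could not have been called lower, so the levels are given with no count. Of the 18 genes with the term, 7 stayed under 1 RPKM in both libraries. Median levels were 0.140, 2.12 and 13.9 RPKM for larva, pupa and adult. TC009719 stood at 0.0971 RPKM in the larval and 4.82 in the pupal library, on 5 and 255 reads, 49.7-fold higher (21.0 to 154), and at 38.3 RPKM in the adult. TC007515 held 79.7% of the term's larval reads, and without it the share went from 0.00375% to 0.0302%. Genes with testis names (tektin, axonemal dynein or testis-specific kinase) had summed levels over 4 listed genes of 2.7, 18.1 and 148 RPKM for larva, pupa and adult; their part in the coiled-coil and dynein terms was not tested.

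The balance of embryo and adult levels, which the larva-to-pupa ratio does not use, differed between these groups of genes. Over all 2792 genes higher in the pupa, 38.2% were at least 2-fold higher in embryo than adult and 27.8% the reverse. The 5 coiled-coil terms above were pooled with the related label centromere protein F (K11499). Of their 134 genes, 62 were higher in the pupa, and of these 5 were higher in the embryo and 43 in the adult. In centromere protein F, 4 of the 18 genes at 1 RPKM or more in the larva were higher in the pupa and 1 lower. In 7 epithelial and junction terms, 29 of 59 genes were higher in the pupa, 13 of them with the embryo and 3 with the adult higher. The 13 were 44.8%, near the 38.2% of all genes higher in the pupa. In 6 axon and synapse terms, 33 of 64 genes were higher in the pupa, 24 of them with the embryo and 3 with the adult higher. Among all compared members, whatever their pupal value, the embryo was higher for 15 of 134, 23 of 59 and 41 of 64 in these groups. The adult was higher for 60, 10 and 5. The lean of the epithelial and of the axon and synapse terms toward the embryo was thus not particular to genes higher in the pupa. In each group some genes were under 1 RPKM in the larva and could not have been called lower. The groupings of terms were made after their values were seen, and the shares describe these libraries. Of all 1748 genes lower in the pupa, 7.32% were higher in the embryo and 60.0% in the adult, and of the 667 lower genes within terms below, 2.85% and 68.1%.

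**Figure D4:**
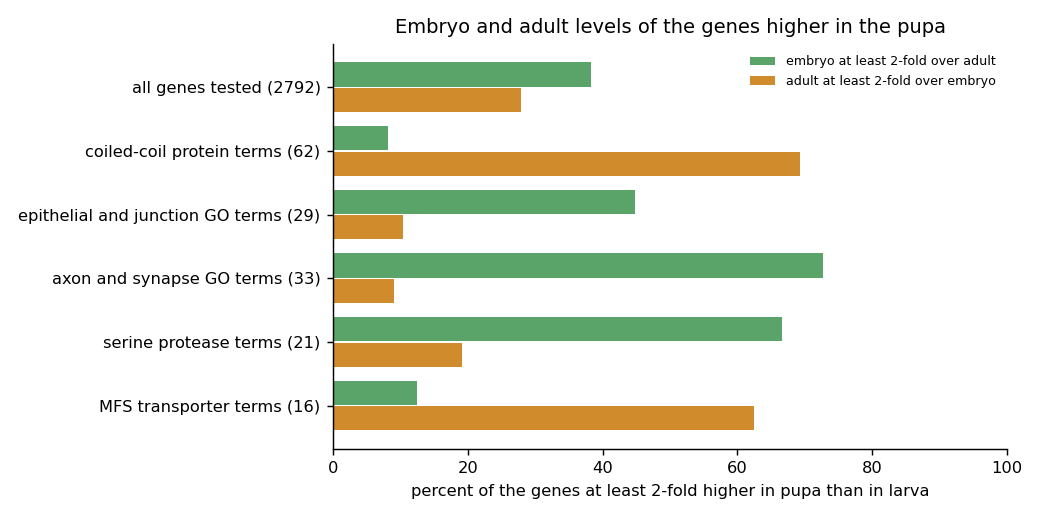
Percent of the genes at least 2-fold higher in pupa than larva (number in parentheses) that were at least 2-fold higher in embryo than adult (green) or in adult than embryo (orange), for all genes and 5 groups of terms. The coiled-coil terms have 69.4% on the adult side, and the axon and synapse terms 72.7% on the embryo side. Among all compared members of these terms, whatever their pupal value, the same shares were 44.8% and 64.1%.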

How the data were processed

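The members and gene lists were chosen with earlier results of these data known. Per the labels' protocols and the file headers, the authors sequenced poly(A)-selected RNA of whole animals and deposited, for each library, the count of unique reads per gene, the RPKM computed from it and the coverage, in percent of the model's length, with KEGG, Gene Ontology and protein-name columns. For the RNA libraries, the sources used here name no aligner, genome build or annotation. Tools listed in the submitters' processing notes, with no role stated, are SAMtools 0.1.19, BSMAP 2.73 and CASAVA 1.8.2. The bisulfite libraries were not analysed here.

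RPKM recomputed from the deposited counts, lengths and library totals differed by at most 5.0e-15 in relative terms, and 99.4% of model lengths were multiples of 3, as coding lengths are. A gene absent from a library's list was taken as 0 reads. Genes with at least 1 RPKM in either library were compared as log2((pupa + 1)/(larva + 1)), called at 2-fold, and grouped by every term with at least 10 of them. With 1 library per stage there was no test. Intervals of ratios are exact conditional binomial, those of shares exact Clopper-Pearson, both at 95%, and a floor of 3 reads stands for 0.

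Terms were named by a rule: per column the 12 highest and 12 lowest medians, passing over terms that share most genes with one already taken, the 10 largest terms, the 5 with most genes on both sides, and terms of set themes. Named genes were the 3 most different in each direction at 10 RPKM or more, the 2 most abundant and, in KEGG terms, the highest and lowest member. Summaries were tested on simulated data. Python 3.11.15, numpy 2.4.6, pandas 2.3.3 and scipy 1.17.1 were used. Alternatives changed scaling, the added value, filters and thresholds.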

Additional observations from a re-analysis of the deposited data

How the results depend on the processing

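The counts of genes depended most on scaling and threshold. Median-ratio rescaling gave 1671 genes higher and 2243 lower, 42.7% of those called being higher instead of 61.5%, and moved the median of all genes by -0.43. A 4-fold threshold gave 720 higher and 973 lower, and a counting interval beyond 2-fold 1298 and 1222. Terms above numbered 43 with 0.1 RPKM added instead of 1, 3 with medians at least 1 away and 6 with at least 20 genes per term; terms below numbered 50 and 45 under the last pair of settings. All other alternatives left the counts of genes and terms within 1.5 times.

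Of 448 recomputed medians of the 64 named terms, 438 stayed on the same side of the bound and none reversed. The exceptions were the labels titin, myosin heavy chain and CAP-Gly linker protein 1, and the terms synapse assembly and photoreceptor fate commitment. Of 524 recomputed ratios of the 131 named genes, 505 stayed on the same side of 2-fold and no called gene changed sign. Median-ratio rescaling took 9 of the named genes that were higher under 2-fold: TC001380, TC001770, TC004393, TC004557, TC005857, TC010644, TC012086, TC012717 and TC015310. It took ferritin (TC000476), TC002444, TC006170, TC007766 and TC014998 past 2-fold lower. The counts within the chymotrypsin, alpha-amylase, cathepsin B and lysosomal acid lipase terms were the same under all 3 other scalings. Beside the counts given above for other terms, median-ratio rescaling moved higher against lower genes from 17 and 29 to 11 and 32 for trypsin, from 12 and 48 to 7 and 54 for iron ion binding, from 7 and 0 to 3 and 1 for ribonucleoprotein complexes, from 4 and 1 to 1 and 1 for the spliceosomal complex, from 4 and 0 to 2 and 0 for titin, from 3 and 3 to 2 and 5 for broad, and from 2 and 5 to 0 and 6 for aminopeptidase N. No paired analysis was possible because each stage had 1 RNA library. Depth limits weakly expressed genes, such as the axonemal dyneins and receptor channels, whose larval values often rest on few reads.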
